A study of Mus musculus with 6 samples.

Results

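Imprinted genes are the subject here: H19, Igf2, Meg3, Dlk1, Peg3, Peg10, Mest, Cdkn1c, Grb10 and Plagl1, which were chosen by symbol as well-known imprinted genes. All 10 symbols were found, each once, among the 36652 genes of the deposited table. The RNA came from testes of 8-week-old mice, in 3 libraries labelled WT and 3 labelled Ccdc117ko, and no treatment is named. The series is titled as a study of how a shortage of Ccdc117, named for its coiled-coil domain, sets off excess androgen while sperm formation is upheld. The labels give neither the allele nor the strain, and they leave unsaid if each replicate is another mouse, so a p-value here reflects only the spread between these libraries, which may be technical. The table holds log2 values, read here as log2(normalized count + 1), where a normalized count is the reads of a gene divided by a size factor of the library. Summed over the 36652 genes, each library held between 35791616 and 43461692 reads, as recovered from the steps of its values. Ccdc117 itself had 3805 ± 138 normalized counts in WT and 3719 ± 220 in the libraries labelled Ccdc117ko (SD, n = 3 each), so its gene total does not check the genotype labels.

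Genomic imprinting is the expression of a gene from only the maternal or only the paternal copy, set by DNA methylation laid down in the germ line and kept through the cell divisions of the embryo. Paternally expressed genes such as Igf2, Dlk1, Peg3, Peg10, Mest and Plagl1 tend to favour growth, while maternally expressed genes such as Cdkn1c, Grb10 and the long noncoding RNAs H19 and Meg3 tend to restrain it or to arise from the same control regions. In the male germ line maternal marks are erased and paternal marks are set before birth, so germ cells of the adult testis lack the maternal marks, while somatic cells such as Sertoli and Leydig cells keep marks of both parents. Reads summed over a gene carry no allele information, so none of the values below says which parental copy was read.

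The start sites of Grb10, Plagl1, Peg3 and Meg3 are shown because Grb10 and Plagl1 were lower in the libraries labelled Ccdc117ko while Peg3 and Meg3 were not called. Each window runs 5′ to 3′ from 250 bases before to 50 bases after a RefSeq start on GRCm38.p6, and capitals mark TGCCGC or its reverse complement GCGGCA, the word that the imprint-keeping zinc finger protein ZFP57 is known to bind when methylated.
Grb10 upstream start, chr11:12037371-12037670, minus strand: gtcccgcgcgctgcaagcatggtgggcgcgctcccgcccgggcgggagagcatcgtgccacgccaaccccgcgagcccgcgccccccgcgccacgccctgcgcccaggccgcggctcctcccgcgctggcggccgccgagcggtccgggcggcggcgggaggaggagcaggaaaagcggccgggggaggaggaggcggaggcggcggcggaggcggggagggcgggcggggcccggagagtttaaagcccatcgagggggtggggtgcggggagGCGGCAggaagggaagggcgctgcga
Grb10 downstream start, chr11:12027922-12028221, minus strand: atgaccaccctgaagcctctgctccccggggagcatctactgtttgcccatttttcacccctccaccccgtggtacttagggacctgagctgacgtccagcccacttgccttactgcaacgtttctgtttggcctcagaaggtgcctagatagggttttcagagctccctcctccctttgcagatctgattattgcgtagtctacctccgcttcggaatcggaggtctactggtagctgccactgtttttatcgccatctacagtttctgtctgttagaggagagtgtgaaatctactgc
Plagl1, chr10:13090582-13090881, plus strand: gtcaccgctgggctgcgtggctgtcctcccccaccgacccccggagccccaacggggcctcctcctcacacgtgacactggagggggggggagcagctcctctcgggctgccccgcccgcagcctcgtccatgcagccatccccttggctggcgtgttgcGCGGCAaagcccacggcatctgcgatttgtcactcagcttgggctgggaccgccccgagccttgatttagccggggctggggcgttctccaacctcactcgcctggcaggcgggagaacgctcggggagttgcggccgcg
Peg3, chr7:6730370-6730669, minus strand: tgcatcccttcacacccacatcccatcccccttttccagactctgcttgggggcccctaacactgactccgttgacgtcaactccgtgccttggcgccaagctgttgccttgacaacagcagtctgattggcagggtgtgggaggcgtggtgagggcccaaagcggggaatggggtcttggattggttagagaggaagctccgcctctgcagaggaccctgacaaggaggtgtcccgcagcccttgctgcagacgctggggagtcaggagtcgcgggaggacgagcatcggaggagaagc
Meg3 upstream start, chr12:109540746-109541045, plus strand: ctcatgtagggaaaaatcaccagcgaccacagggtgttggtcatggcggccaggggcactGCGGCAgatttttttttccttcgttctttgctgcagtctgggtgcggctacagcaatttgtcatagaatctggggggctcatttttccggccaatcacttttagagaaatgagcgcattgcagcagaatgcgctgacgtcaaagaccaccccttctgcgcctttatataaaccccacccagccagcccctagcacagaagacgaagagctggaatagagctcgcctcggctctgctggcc
RefSeq windows were matched for 7 of the 10 genes, 14 windows in all, and H19, Peg10 and Cdkn1c had no entry. The word TGCCGC, searched on both strands, was found in 6 of the 14 windows, and 2 of those 6 are Mest starts that lie 3 bases apart. Of all 32851 windows of the same length, 11.6% held it. Plagl1, the upstream Grb10 start and the upstream Meg3 start held 1 match each, and the downstream Grb10 and the Peg3 windows none. The upstream Grb10 window was the richest in CpG, with 45 CpG pairs against 26 at Plagl1, 13 at Peg3, 13 at the upstream Meg3 start and a median of 7 over all windows. A match is a string in these 300 bases only, and methylation was not measured.

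Of the 10 genes, 3 were lower in the libraries labelled Ccdc117ko, none was higher and 7 were not called. The 3 were Plagl1, Grb10 and Peg10, at 0.642, 0.757 and 0.772 times their WT means. A gene is called here at an adjusted p under 0.05 in limma, fitted to all 32783 genes averaging 0.5 or more normalized counts, a minimum that all 10 passed. In that fit 6.80% of genes were called, 3.70% higher and 3.10% lower. At an unadjusted p under 0.05, which 11.1% of tested genes passed upward and 11.6% downward, 0 of the 10 genes were higher and 3 lower. The authors' deposited table also gives these 3 genes, and none of the other 7, an FDR under 0.05. An FDR under 0.05 is listed there for 11.5% of all genes, and for 5.77% of all genes together with a lower value. The median log2 change of the 10 genes was -0.12, with 6 of 10 below 0, against a median of 0.00 over all tested genes. The same 3 genes were those whose genotypes did not overlap, which was so in the lower direction for 13.3% of tested genes.

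**Figure D1:**
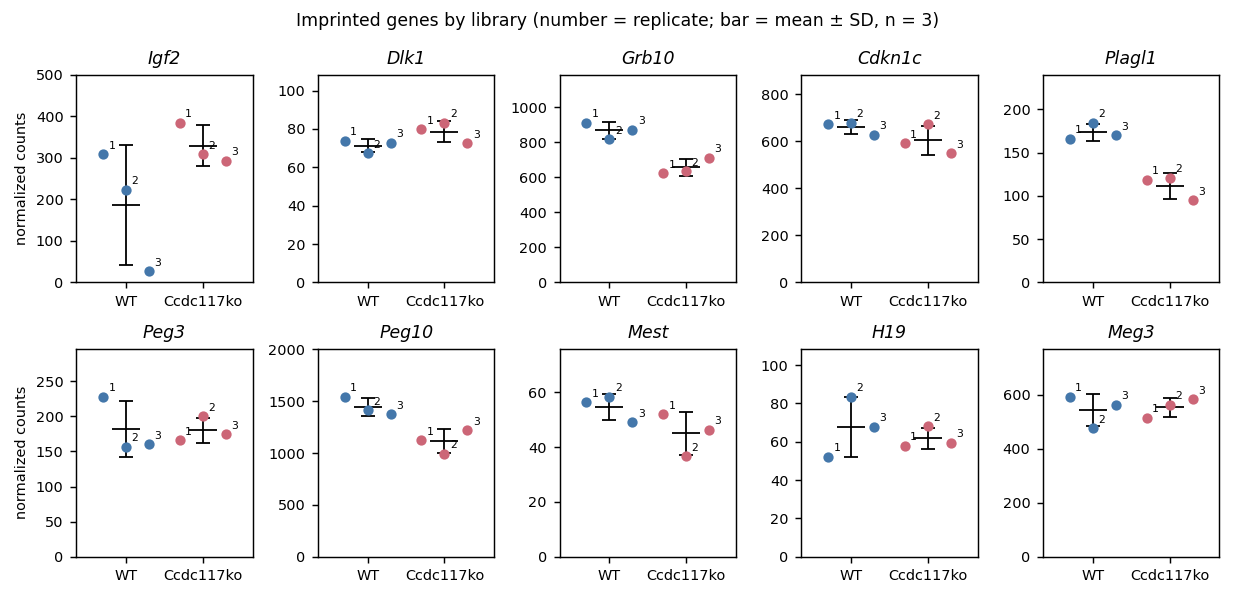
Normalized counts (y axes, from 0) of the 10 genes in each library, with WT in blue, Ccdc117ko in red, the replicate number beside each point, and the mean ± SD of 3 libraries as bars. Grb10, Plagl1 and Peg10 show no overlap between genotypes, and WT replicate 3 stands far below the others for Igf2.

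Compared per length of the longest transcript, WT levels spanned a wide range. Cdkn1c was the most abundant at 348 ± 14.7 normalized counts per kilobase, followed by Peg10 at 216 ± 13.2 and Grb10 at 171 ± 9.37 (SD, n = 3 each). These 3 were separated from each other by more than their spread. Far below came Igf2 at 39.4 ± 30.6, Meg3 at 37.3 ± 4.15, Plagl1 at 33.0 ± 1.88 and H19 at 29.6 ± 6.85, then Peg3 at 20.9 ± 4.61, Mest at 20.5 ± 1.82 and Dlk1 at 15.3 ± 0.751. In that order the mean ± SD ranges of each adjacent pair from Igf2 down to Mest overlapped, while those of Mest and Dlk1 did not. The median over all tested genes was 38.9 per kilobase, so 7 of the 10 genes, with Igf2 taken on its own row, had WT means near or below it. A transcript shorter than the longest one would raise these levels. Igf2 shares reads with an overlapping gene model, Gm49394, described below. The WT mean of Igf2 was 186 ± 144 normalized counts alone and 322 ± 2.85 summed with Gm49394 (SD, n = 3 each). Its level and rank here thus depend on how those reads were shared.

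Grb10 encodes an adaptor that binds the insulin and IGF1 receptors and dampens their signal. Its position is 11930508 to 12038683 on chromosome 11, minus strand (mm10). In WT its normalized counts were 913, 818 and 872 by replicate, and in the libraries labelled Ccdc117ko 623, 635 and 713. Every Ccdc117ko library was below every WT library. Grb10 averaged 867 ± 47.4 in WT and 657 ± 48.7 in the other group (SD, n = 3 each), and the log2 change was -0.40 (SE 0.07, limma adjusted p = 0.0226). The authors' deposited table lists an FDR of 1.77e-05 for Grb10. Cobl, an actin regulator gene beside Grb10 that is imprinted in some tissues, had 173 ± 19.5 and 129 ± 21.7, without overlap, but was not called (log2 change -0.43, limma adjusted p = 0.141).

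Plagl1, also known as Zac1, encodes a zinc finger transcription factor that restrains the cell cycle and acts on other imprinted genes. It spans 13060504 to 13131694 on the plus strand of chromosome 10. Its counts were 166, 185 and 170 in WT and 119, 121 and 94.7 in the libraries labelled Ccdc117ko. The groups did not overlap, and Ccdc117ko replicate 3 was the lowest. The means of 174 ± 9.88 and 112 ± 14.6 (SD, n = 3 each) gave a log2 change of -0.64 (SE 0.13, limma adjusted p = 0.0295). In the authors' deposited table the FDR of Plagl1 is 0.00129.

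Peg10 is a gene derived from a retrotransposon whose protein resembles a viral capsid and is needed for the placenta. It spans 4747306 to 4760517 on the plus strand of chromosome 6. Its counts were 1542, 1414 and 1374 in WT and 1126, 994 and 1222 in the libraries labelled Ccdc117ko, again without overlap. Peg10 averaged 1443 ± 87.9 and 1114 ± 115 (SD, n = 3 each), with a log2 change of -0.38 (SE 0.08, limma adjusted p = 0.0378), and the authors' deposited table lists an FDR of 2.21e-05. Sgce, which encodes epsilon-sarcoglycan and sits head to head with Peg10 under the same paternal control, had 271, 262 and 274 in WT against 301, 264 and 270. The Sgce groups overlapped, and its log2 change was 0.05 (95% interval -0.14 to 0.23, limma adjusted p = 0.792). In that region Asb4 and Ppp1r9a, had -0.12 and -0.13 without a call (limma adjusted p = 0.311 and 0.231).

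These 3 calls rest on all 6 libraries and on the filter. With any single library left out, the limma adjusted p was 0.0695 to 0.126 for Grb10, 0.0727 to 0.114 for Plagl1 and 0.0846 to 0.14 for Peg10, so each call was lost without each of the WT replicates 1, 2 and 3 and the Ccdc117ko replicates 1, 2 and 3. Calls were lost over all genes as well, with 6 to 1268 genes called in those fits against 2228 with all 6 libraries. The log2 changes themselves stayed between -0.46 and -0.36, -0.70 and -0.53, and -0.45 and -0.30. When only the 22878 genes averaging 10 or more normalized counts were fitted, all 3 were called with all libraries. They were also called with each library left out, in fits added outside the plan. The limma adjusted p was at most 0.0255 for Grb10, 0.0345 for Plagl1 and 0.0354 for Peg10. With all libraries the fit with this minimum called 16.6% of genes, 8.25% lower and 8.35% higher. Summed Sertoli markers were lower too, at 61033 to 63285 in WT and 55888 to 58121 in the other group. Most of that sum was Clu, at 43791 ± 593 and 40246 ± 818 (SD, n = 3 each). The part of Sertoli markers in these values was not tested.

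Transcript length moved with the difference between genotypes. Taking the 1903 genes that averaged 50 or more and had a longest transcript of 5000 to 7000 bases, a range set after the values were seen to cover Grb10 (5061), Plagl1 (5260) and Peg10 (6667), the median log2 change was -0.12 and 11.4% were called lower. After a smooth trend with transcript length and GC content was removed from each library, the log2 changes were -0.29 for Grb10 (limma adjusted p = 0.0417), -0.54 for Plagl1 (0.0584) and -0.25 for Peg10 (0.0961), so 1 of the 3 calls stood. The share of all calls that were higher also shifted, from 1212 higher and 1016 lower to 1446 higher and 431 lower (4.41% and 1.31% of genes). Meg3 and Peg3, with the longer transcripts of 14548 and 8694 bases, were not called in either fit. The correction moved the log2 change of Meg3 from 0.03 to 0.21 (limma adjusted p = 0.219) and that of Peg3 from 0.00 to 0.15 (0.667).

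**Figure D2:**
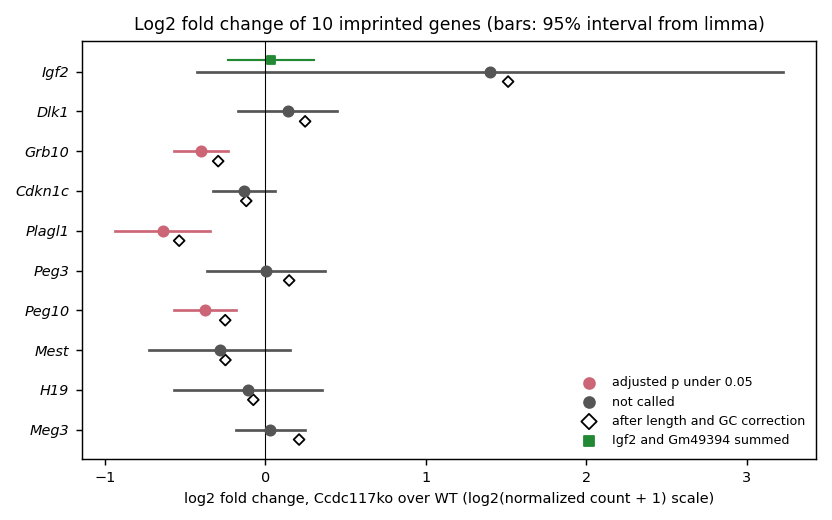
Log2 fold change of Ccdc117ko over WT (x axis) for each of the 10 genes, with 95% intervals from limma (red, adjusted p under 0.05; grey, not called), the value after the length and GC correction (open diamonds) and Igf2 summed with Gm49394 (green square). Plagl1, Grb10 and Peg10 lie at -0.64, -0.40 and -0.38, and Igf2 moves from 1.40 to 0.03 when summed.

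Igf2 encodes insulin-like growth factor 2, the main growth factor of the embryo, and in the table its value turned on the gene model. Its counts were 308, 223 and 26.5 in WT and 385, 308 and 293 in the libraries labelled Ccdc117ko. WT replicate 3 was far below all other libraries, and WT replicate 1 reached into the Ccdc117ko range. The log2 change was 1.40 (SE 0.79, interval -0.43 to 3.22, limma adjusted p = 0.341). Igf2 occupies 142650766 to 142666816 on chromosome 7, minus strand, and a second gene model on the same strand, Gm49394, runs from 142650769 to 142669942 across it. Of the 50-base words of the longest Igf2 transcript, 75.9% occur in another gene, most in Gm49394, so reads there could go to either name. The log2 change of Igf2 by itself was 0.31 without WT replicate 3 (limma adjusted p = 0.436) and 2.06 without WT replicate 1 (0.268), and the latter passed the threshold with the minimum of 10 (0.027).

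Gm49394 was high where Igf2 was low. Its counts were 10.9, 101 and 296 in WT and 11.99, 0 and 0 in the libraries labelled Ccdc117ko. Gm49394 held 3.40%, 31.2% and 91.8% of the pair's sum in the WT libraries, by replicate, and 3.02%, 0% and 0% in those labelled Ccdc117ko. The sum was 319, 325 and 322 in WT and 397, 308 and 293 in the libraries labelled Ccdc117ko. On the sum WT replicate 3 no longer stood apart, the groups overlapped, and the means were 322 ± 2.85 and 333 ± 56.0 (SD, n = 3 each). The log2 change of the sum was 0.03 with an interval of -0.23 to 0.30 (limma adjusted p = 0.914), a fit added after the values were seen. How the counting shared reads between the models is not given in the sources used here, and a shift between Igf2 transcript forms was not tested. Only 11 of 17549 genes with a mean of at least 50 had 1 library at least 3 log2 units under the next lowest, and Igf2 was 1 of them.

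**Figure D3:**
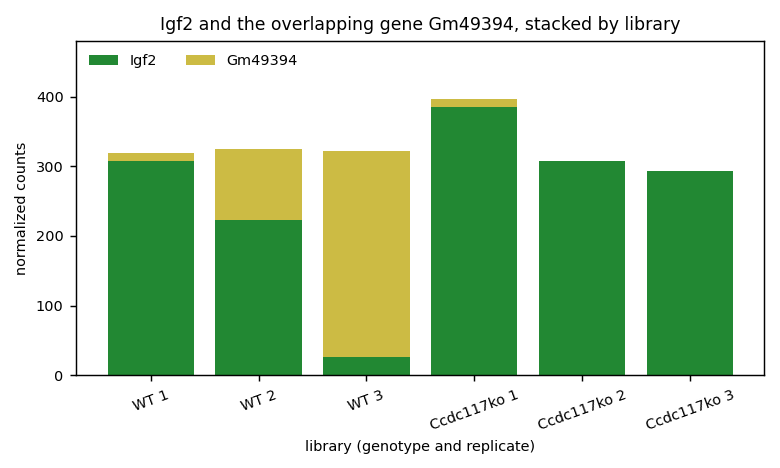
Normalized counts of Igf2 (green) and of the overlapping Gm49394 (yellow), stacked for each library (x axis). The stacks reach 293 to 397 in all 6 libraries, while the yellow part takes 91.8% of WT replicate 3.

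H19 is the maternally expressed noncoding RNA that shares a control region with Igf2, and it hosts the microRNA miR-675. Its counts were 52.1, 83.4 and 67.8 in WT and 58.0, 68.1 and 59.5 in the libraries labelled Ccdc117ko, all within the WT range. The log2 change was -0.11 (interval -0.57 to 0.35, limma adjusted p = 0.805).

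Dlk1 and Meg3 are reciprocally imprinted neighbours on chromosome 12. Dlk1 encodes a transmembrane protein related to Notch ligands that marks immature stromal and Leydig lineage cells. Its counts were 73.8, 67.3 and 72.7 in WT and 79.9, 83.3 and 72.6 in the libraries labelled Ccdc117ko, with a small overlap and a log2 change of 0.14 (interval -0.17 to 0.45, limma adjusted p = 0.593). Meg3, the maternally expressed noncoding RNA of the region, had 591, 475 and 562 in WT and 515, 563 and 582.5, with the groups intermingled and a log2 change of 0.03 (interval -0.19 to 0.25, adjusted p = 0.896). Rian and Mirg, noncoding RNAs downstream of Meg3, had log2 changes of 0.04 and 0.03 (limma adjusted p = 0.928 and 0.922). Meg3, Rian and Mirg thus all had estimates within 0.05 of 0 on the log2 scale. Dio3, an iodothyronine deiodinase gene at the far end, had a mean of 4.95 normalized counts over the 6 libraries, and Rtl1 was under the minimum for the test.

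Cdkn1c encodes p57, an inhibitor of cyclin-dependent kinases that marks cells leaving the cell cycle. Its counts were 674, 680 and 629 in WT and 593, 672 and 548 in the libraries labelled Ccdc117ko. Ccdc117ko replicate 2 lay inside the WT range, and the log2 change was -0.13 (interval -0.32 to 0.06, limma adjusted p = 0.393). The noncoding RNA Kcnq1ot1, listed as paternally expressed in the same domain and antisense to the potassium channel gene Kcnq1, had -0.22 (adjusted p = 0.25 in limma). Use of strand in the counting is not given, so reads where Kcnq1ot1 and Kcnq1 overlap cannot be told apart. Of the other genes of the domain, Slc22a18 had -0.23, Cd81 -0.17, Ascl2 -0.24, Phlda2 -0.50, Tssc4 0.15 and Kcnq1 0.00, and none was called (limma adjusted p between 0.132 and 0.995). The authors' deposited table lists an FDR of 0.0451 for Cd81. Phlda2 rested on a mean of 7.54 normalized counts.

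Peg3 encodes a large zinc finger protein that represses transcription. Its counts were 228, 157 and 160 in WT and 166, 200 and 174 in the libraries labelled Ccdc117ko. WT replicate 1 was the highest and the other WT libraries the lowest of the 6, and the log2 change was 0.00 (interval -0.36 to 0.37, limma adjusted p = 0.993). Its neighbours Usp29 and Zim1 had means of only 16.2 and 5.74 normalized counts and were not called (limma adjusted p = 0.992 and 0.313).

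Mest encodes a membrane protein of the alpha/beta-hydrolase fold found in mesoderm. It was the least counted of the 10 genes, with 56.4, 58.3 and 49.1 in WT and 52.0, 36.6 and 46.4 in the libraries labelled Ccdc117ko. Ccdc117ko replicate 1 lay inside the WT range, and the log2 change was -0.29 (interval -0.73 to 0.15, limma adjusted p = 0.43). Copg2, a coat protein gene that overlaps the end of Mest on the other strand, was far more abundant, at 2815 ± 130 and 2483 ± 173, and was not called (log2 change -0.18, limma adjusted p = 0.117). The authors' deposited table lists an FDR of 0.0166 for Copg2. With use of strand not given, reads in the overlap of Mest and Copg2 cannot be told apart.

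Outside the 10 genes, few imprinted genes were called. Of 48 further imprinted genes on a list, 47 were found, 45 were tested, 2 were higher, 1 was lower and 42 were not called, a share near the 6.80% of all genes. Their median log2 change was -0.08 against 0.00 over all tested genes, and 27 of 45 were below 0. At an unadjusted p under 0.05 in limma, 3 were higher and 11 lower, against 11.1% and 11.6% of all tested genes. Genotypes did not overlap for 3 higher and 10 lower, against 13.7% and 13.3%. By the authors' deposited FDR under 0.05, 3 were higher and 4 lower, against 11.5% of all genes in either direction and 5.77% lower. Among the further genes listed as paternally expressed, Zdbf2 rose from 4025 ± 167 to 4739 ± 159 normalized counts (log2 change 0.24, limma adjusted p = 0.0262). Gnasas1, the antisense RNA of the Gnas locus listed under the older symbol Nespas, rose from 186 ± 5.35 to 241 ± 4.53 (0.37, adjusted p = 0.0353 in limma). Where Gnasas1 and the sense gene overlap, their reads cannot be told apart without strand. Among those listed as maternally expressed, Ube3a, a ubiquitin ligase gene imprinted in neurons, fell from 2502 ± 105 to 2069 ± 136 (-0.27, limma adjusted p = 0.0349). Every ± in this paragraph is an SD (n = 3 each). Igf2r, the receptor that clears IGF2, had 566 ± 73.3 and 511 ± 64.3 and was not called (-0.15, limma adjusted p = 0.539). Once length and GC trends were removed, 2 of the further genes were higher and 0 lower, against 4.41% and 1.31% of all genes. Ube3a was then no longer called, and the median was 0.01. Without that step the paternally expressed genes had a median of -0.08 over 22 tested and the maternally expressed genes -0.12 over 23. With each single library left out, 0 to 2 of the 45 were called, and with the stricter minimum of 10, 2 to 5. Over all genes those fits called 6 to 1268 and, with the stricter minimum, 1714 to 4021.

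**Figure D4:**
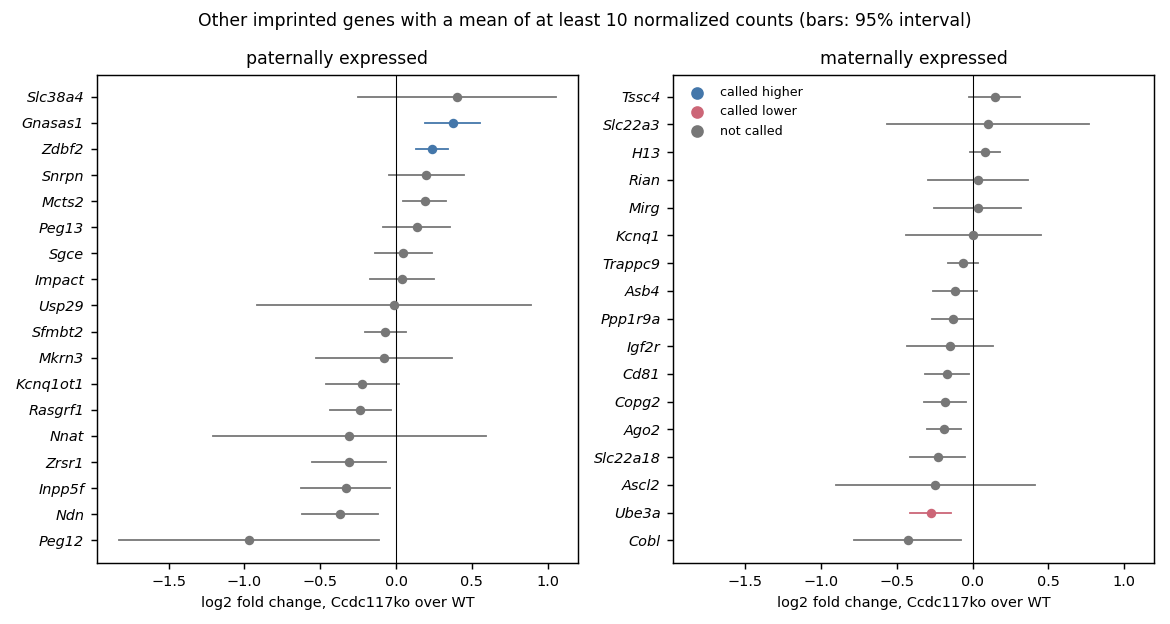
Log2 fold change of Ccdc117ko over WT (x axes) for the further imprinted genes averaging 10 or more normalized counts, paternally expressed on the left and maternally expressed on the right, with 95% intervals from limma. Only Zdbf2 and Gnasas1 (higher, blue) and Ube3a (lower, red) passed the threshold.

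Genes that set or keep imprints were lower where called in limma. Of 25 tested, 0 were higher, 5 lower and 20 not called, a share of lower calls above the 3.10% of all genes, and the median log2 change was -0.18 with 19 of 25 below 0. At an unadjusted p under 0.05 in limma, 2 were higher and 11 lower, against 11.1% and 11.6% of all tested genes. Trim28, the corepressor that ZFP57 recruits, fell from 19566 ± 225 to 17433 ± 130 normalized counts and Dnmt1, the maintenance DNA methyltransferase, from 2102 ± 161 to 1736 ± 72.0 (SD, n = 3 each). Hells, a chromatin remodeller needed for DNA methylation, fell by 0.36 on the log2 scale, Tet3, which oxidises methylcytosine, by 0.44 and Arid4b, a chromatin protein tied to imprinting control, by 0.28 (limma adjusted p = 0.02 for Hells, 0.0361 for Tet3, 0.0247 for Arid4b, 0.0203 for Trim28 and 0.0461 for Dnmt1). Zfp57 was above WT in every library labelled Ccdc117ko, at 1182 ± 58.1 against 1041 ± 29.7, without a call in limma (0.18, limma adjusted p = 0.0884). The authors' deposited table lists an FDR of 0.0467 for Zfp57. There, 8 of the 25 had an FDR under 0.05 with a lower value and 1 with a higher value, against 5.77% of all genes lower. Once length and GC trends were removed, 0 of these 25 genes were called, against 4.41% of all genes higher and 1.31% lower. Their median was then -0.07. With each library left out 0 to 3 of the 25 were called, with 0 without WT replicates 2 or 3 or any 1 of the Ccdc117ko replicates. The fits with 0 called at most 22 of all tested genes, so they say little about the regulators. The fit without WT replicate 1 called 1268 genes.

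Partners of the products of the 10 genes gave 0 higher, 3 lower and 18 not called of 21 tested, against 3.70% higher and 3.10% lower of all genes, with a median log2 change of -0.11. At an unadjusted p under 0.05 in limma, 1 was higher and 9 were lower, against 11.1% and 11.6% of all tested genes. Irs1, an adaptor of the insulin and IGF1 receptors, fell from 74.7 ± 5.62 to 34.6 ± 3.52 normalized counts (log2 change -1.09, limma adjusted p = 0.0169). Igf2bp2, which encodes an Igf2 mRNA-binding protein, fell from 77.8 ± 4.42 to 48.0 ± 6.32 (-0.69, adjusted p = 0.0443 in limma), and Notch2, of the receptor family that DLK1 acts on, from 445 ± 9.65 to 361 ± 23.1 (-0.30, adjusted p = 0.0463 in limma). The receptors Igf1r and Insr, to which GRB10 binds, had -0.25 and -0.34 and were not called (limma adjusted p = 0.173 and 0.0597), while Igf1 had 0.14 (adjusted p = 0.442 in limma). The authors' deposited table lists an FDR of 0.00365 for Insr. There, 8 of the 21 had an FDR under 0.05 with a lower value and 1 with a higher value, against 5.77% of all genes lower. Once length and GC trends were removed, 1 of the 21 was called lower, against 4.41% of all genes higher and 1.31% lower. With each library left out, 0 or 1 was called. Over all genes the fits with a library left out called 6 to 1268.

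**Figure D5:**
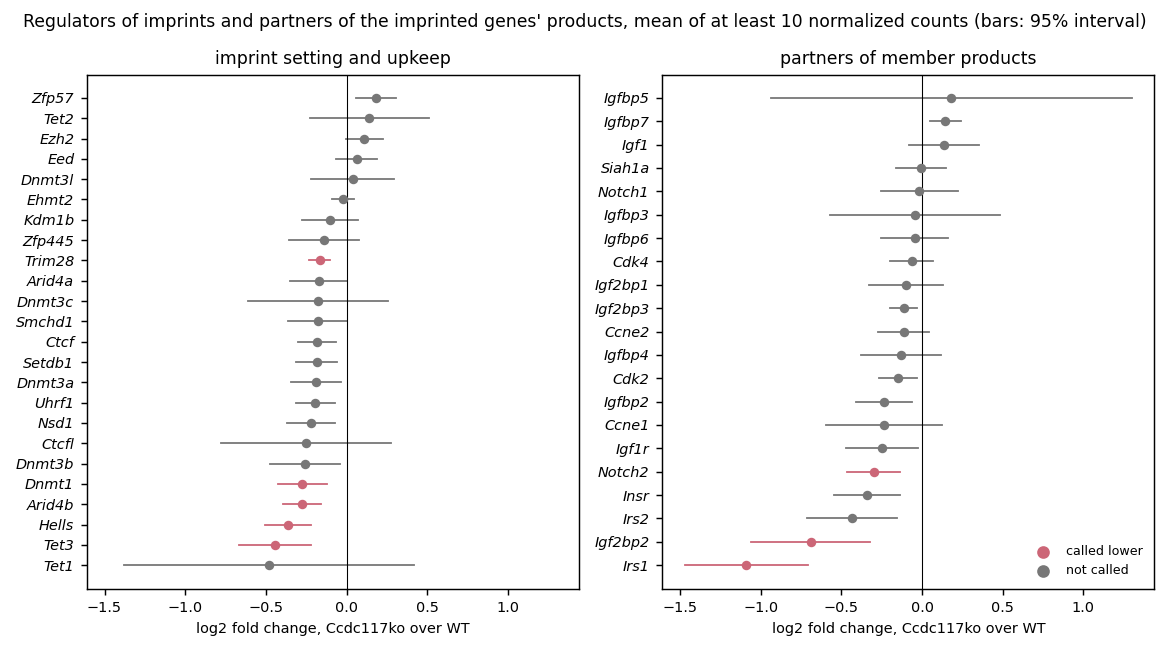
Log2 fold change of Ccdc117ko over WT (x axes) for genes that set or keep imprints (left) and partners of the products of the 10 genes (right), each averaging 10 or more normalized counts, with 95% intervals from limma. The 5 regulators and 3 partners in red passed the threshold, and all 8 lie below 0.

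Markers of testis cell types moved as well. The counts of calls below stand against 3.70% of all tested genes called higher and 3.10% lower. Summed Sertoli markers ranged from 61033 to 63285 normalized counts in WT and from 55888 to 58121 in the libraries labelled Ccdc117ko, with 4 of 10 lower (Dhh, Wt1, Gata4 and Cldn11) and 0 higher. Most of that sum was Clu, at 43791 ± 593 in WT and 40246 ± 818 in the other group (SD, n = 3 each). Clu was not called (limma adjusted p = 0.0508), and 9 of the 10 Sertoli markers were below 0. Spermatogonial markers ranged from 7779 to 8124 and from 6876 to 7421 (Kit and Etv5 lower of 10, 0 higher), spermatocyte markers from 38625 to 40681 and from 36049 to 36132 (Mybl1 and Dmc1 lower of 8, 0 higher), and stromal progenitor markers from 3378 to 3810 and from 3060 to 3449 (Pdgfra lower of 8, 0 higher). Spermatid markers ranged from 497601 to 548600 and from 523858 to 564269, with 5 of 10 higher (Acr, Izumo1, Spaca1, Acrv1 and Catsper4) and 0 lower. Of the 8 Leydig markers 3 were higher (Cyp17a1, Hsd3b6 and Star) and 2 lower (Hsd3b1 and Nr5a1), and their sum ranged from 67787 to 78408 and from 80030 to 92941. Most of the Leydig sum was Insl3, at 48328 ± 3955 and 57057 ± 5261 (SD, n = 3 each). Insl3 overlapped between the groups and was not called (limma adjusted p = 0.113). Peritubular myoid sums were 13665 to 14389 and 14860 to 15535 (Actg2 higher and Myh11 lower of 6), but without Actg2, left out after its value was seen, the other 5 were all below 0 and summed to 4456 to 4653 and 3986 to 4489. Macrophage sums were 2845 to 3400 and 2683 to 2995 (Mrc1 lower of 8, 0 higher), and endothelial sums 1656 to 1818 and 1516 to 1753 (0 of 8 called, Vwf and Egfl7 being the most abundant). No found marker of these lists was at 0 in all libraries. Once length and GC trends were removed, 1 Sertoli marker and 0 stromal, macrophage or peritubular myoid markers were called lower. Lower calls were then also 2 spermatogonial, 2 spermatocyte and 1 Leydig, and higher calls 5 spermatid, 3 Leydig and 1 peritubular myoid. That fit called 4.41% of all genes higher and 1.31% lower. Of 8 epididymal markers 6 were found and 0 called; Cst8 and Rnase10 were the most abundant, and Lcn8 was at 0 in all 3 WT libraries. In whole testis, fewer cells of a type and less RNA per cell cannot be told apart, and the part of these shifts in the lower values of Grb10, Plagl1 and Peg10 was not tested.

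Patterns over the 6 libraries were compared for the 3 most counted of the 10 genes, against the other 17548 genes averaging 50 or more. The genes most like Grb10 were Clu (Pearson's r = 0.999) and Chrd (0.998). For Peg10 they were Pogz (0.995) and Ppp1r3c (0.993), and for Cdkn1c Ppp2r1a and Fbl (0.982 each). With 6 libraries that share 2 genotypes, so close a match arises readily in a search over many genes, and these values are given as a description only.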

How the data were processed

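Per the labels' protocols, testis RNA came from a TRIzol extraction with a DNase step, and libraries of a stranded mRNA kit were sequenced on an Illumina HiSeq 2500. STAR, DESeq2 and mm10 are named in the submitters' processing notes without versions, while how reads were counted, and whether by strand, is not given in the sources used here. As log2 values the authors deposited 1 number per gene and library, which fit log2(normalized count + 1): with the log2 undone, 100% of values under 500 reads were whole multiples of 1 step per library within 0.01. The authors also deposited a p-value and an FDR per gene, whose test the file does not state.

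The design had foreseen limma for such values, and limma-trend (limma 3.58.1, R 4.3.3) was fitted to all 32783 genes with a mean of at least 0.5, with genotype as the only term, two-sided, adjusted by Benjamini-Hochberg. Fold changes on the log2(normalized count + 1) scale understate those of genes with few reads. Precision is limited by 3 libraries per genotype. The 10 genes, the lists and the alternatives were chosen with earlier results of these data known. Named are the 10 genes, Ccdc117, neighbours in their domains, called members of the lists (up to 6 each), and the genes most alike over libraries; Zfp57, Igf1, Igf1r, Insr, Igf2r, Gm49394 and Lcn8 were added after their values were seen. GENCODE M21 on GRCm38 (mm10) supplied annotation, the length and GC of the longest transcript for 36551 matched genes, and promoter windows from RefSeq on GRCm38.p6. The correction took off, library by library, a natural spline trend of the log2 deviations over transcript length and GC content. Scaling, pseudocounts, filters, the replicate number as a block and leaving out each library were tried as alternatives. The steps were tested on simulated data.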

Additional observations from a re-analysis of the deposited data

How the results depend on the processing

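Lower values of Grb10, Plagl1 and Peg10 kept their direction in all 22 alternatives run for each, with 14, 13 and 13 of them called. The fits with a mean of at least 10 and a library left out were added outside the plan, and each called all 3 genes. In the planned fits with a library left out, all 3 calls were lost. No alternative other than the added one with a mean of at least 10 without WT replicate 1 called any of the 10 genes higher; there Igf2 had 2.06 (limma adjusted p = 0.027), and the gene is the one that shares reads with Gm49394. Without a single library, 6 to 1268 genes were called (1268 without WT replicate 1 and at most 22 without any other), with 0 of the 10 genes, 0 to 2 further imprinted genes, 0 to 3 imprint regulators and 0 to 1 partners. With a mean of at least 10 and a library left out, 1714 to 4021 genes were called, with 0 to 1 of the 10 higher and 3 lower, 2 to 5 further imprinted genes, 3 to 8 regulators and 2 to 5 partners. Leaving out a library turned the sign of H19 (-0.28 to 0.0525), Meg3 (-0.0611 to 0.10) and Peg3 (-0.0891 to 0.18), none of them called. With a mean of at least 10 the turned values were 0.0525 for H19 without WT replicate 2, -0.0611 and -0.00642 for Meg3 without WT replicate 2 and Ccdc117ko replicate 3, and -0.0891, -0.0747 and -0.0731 for Peg3 without WT replicates 2 and 3 and Ccdc117ko replicate 2.

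With at least 1 CPM in 3 libraries 4127 genes were called, with 7 further imprinted genes, 10 regulators and 7 partners, and with a mean of at least 10, 3798 genes, 8 regulators and 5 partners. With the length and GC correction 1877 genes were called, 4.41% of all genes higher and 1.31% lower. Among them were 1 of the 10 genes, 0 regulators and 1 partner. The replicate numbers do not pair the libraries: deviations of same-numbered libraries correlated at -0.003, -0.004 and 0.006. With the replicate block 703 genes, 0 of the 10, 1 regulator and 0 partners were called, and with the replicate block and the length and GC correction 28 genes and 0 of each group. The cause of these shifts was not tested. Other scalings and pseudocounts left 3 of the 10 genes called. The planned count models, edgeR and DESeq2, were not run: the values were deposited as log2, and although whole reads could be recovered, they were used here only for depth, replicate checks and scaling. Levels under about 10 normalized counts limit Dio3, Phlda2 and Zim1.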
